A study of Mus musculus with 4 samples.

Results

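The proteasome genes of the mouse heart ventricle were taken as every probe set that names 1 gene whose symbol on the platform begins with Psma, Psmb, Psmc, Psmd, Psme, Psmf or Psmg. The choice gave 103 probe sets of 49 genes, out of 45037 probe sets that are no control on the array. A probe set that names Psme2 together with a second gene was left out by the same rule. Transcripts were measured on 4 Affymetrix MOE430v2 arrays, of which 2 came from HDAC2-deficient embryos (KO) and 2 from wild-type littermates (WT). All embryos were at embryonic day 17.5 on a mixed C57BL/6 and SV129 background, and 6 µg of total RNA went into each labelling. Each KO array held the ventricles of 3 pooled animals and each WT array those of 2, so pool size and genotype cannot be told apart. The labels do not say in which cells Hdac2 was lost or which allele was used, nor whether pools shared animals, so that each p-value reflects only how these arrays varied, some of which may be technical.

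The proteasome is the protease that breaks down proteins tagged with ubiquitin. Its core is a barrel of stacked alpha and beta rings, with the proteolytic sites on some of the beta subunits, and it is opened by a cap whose base holds a ring of ATPases that unfold the substrate and whose lid removes the ubiquitin chain. Cells exposed to interferon replace the catalytic beta subunits with the immunoproteasome versions, which change the peptides offered to T cells. In heart muscle, the proteasome removes worn and misfolded proteins of the contractile apparatus. The members were read in that order, from the core to the cap, the activators and the assembly chaperones. The design asks which transcripts differ when HDAC2, a class I histone deacetylase, is missing.

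The promoters of 4 catalytic genes are shown because these genes divide most clearly by detection. Psmb5 and Psmb6, catalytic subunits of the ordinary core, were called Present on every array, and Psmb8 and Psmb9, the immunoproteasome subunits that replace them, on none. Each sequence is the RefSeq window of GRCm38.p6 from 250 bases before to 50 bases after the annotated start, written 5′ to 3′ on the gene's strand. The windows lie at chr14:54617946-54618245 on the minus strand, chr11:70525107-70525406 on the plus strand, chr17:34197945-34198244 on the plus strand and chr17:34187281-34187580 on the minus strand. Capitals mark matches to 4 motifs searched on both strands: the antioxidant response element core TGACNNNGC, the interferon response element core (TTTC, any 2 bases, TTTC), the gamma-activated site TTCNNNGAA and the box CCAAT.
Psmb5: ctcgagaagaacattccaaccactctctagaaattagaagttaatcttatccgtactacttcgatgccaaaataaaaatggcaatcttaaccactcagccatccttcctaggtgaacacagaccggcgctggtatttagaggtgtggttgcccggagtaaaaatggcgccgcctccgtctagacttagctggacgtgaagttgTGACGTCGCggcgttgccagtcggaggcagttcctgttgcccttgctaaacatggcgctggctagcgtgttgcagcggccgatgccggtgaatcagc
Psmb6: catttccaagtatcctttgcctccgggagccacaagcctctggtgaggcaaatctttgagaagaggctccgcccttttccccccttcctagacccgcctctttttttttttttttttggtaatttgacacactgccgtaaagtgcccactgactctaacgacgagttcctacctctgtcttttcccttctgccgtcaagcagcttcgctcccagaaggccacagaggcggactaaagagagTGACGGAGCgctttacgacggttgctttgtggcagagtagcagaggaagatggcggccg
Psmb8: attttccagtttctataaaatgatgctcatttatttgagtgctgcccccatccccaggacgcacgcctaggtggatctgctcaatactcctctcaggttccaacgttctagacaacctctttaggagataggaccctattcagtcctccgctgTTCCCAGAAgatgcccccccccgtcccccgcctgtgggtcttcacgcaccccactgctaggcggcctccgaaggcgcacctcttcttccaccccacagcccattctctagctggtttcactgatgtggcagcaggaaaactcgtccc
Psmb9: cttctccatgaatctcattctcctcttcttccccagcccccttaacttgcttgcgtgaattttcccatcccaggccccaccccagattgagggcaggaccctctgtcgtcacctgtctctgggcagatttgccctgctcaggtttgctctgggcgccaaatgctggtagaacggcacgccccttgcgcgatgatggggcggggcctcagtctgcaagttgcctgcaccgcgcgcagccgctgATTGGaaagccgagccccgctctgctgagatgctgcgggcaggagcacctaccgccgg
The Psmb5 and Psmb6 windows each hold 1 antioxidant response element core, which begins 47 bases before the start in Psmb5 and 9 bases before it in Psmb6. That core is the sequence bound by the factors of Nfe2l1 and Nfe2l2. The Psmb8 window holds 1 gamma-activated site, and the Psmb9 window holds 1 CCAAT box on the opposite strand. No 2 matches overlapped in these windows. A RefSeq promoter was found for 41 of the 49 genes, 44 windows in all. The antioxidant response element core was in 13.6% of those windows and in 12.4% of all 32851 windows of that length. The interferon response element core was in 11.4% of the proteasome windows and 3.44% of all, which are 5 windows, those of Psmb3, Psmd4, Psmd9, Psme1 and Psmg4. The gamma-activated site was in 6.82% against 8.30%, and the CCAAT box in 36.4% against 37.4%. These matches are a description of the letters and say nothing about binding.

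The labels and tissue were checked first, since a label of the KO samples also reads wt. Hdac2 read 31.4 and 21.0 on the KO arrays, against 1189 and 1421 on the WT arrays, at its brightest probe set (MAS5 signal, a linear intensity), and was called Absent on both KO arrays. Of 10 cardiomyocyte marker genes, all were tested and none passed in limma at its brightest probe set. Of the 10, 1 had an unadjusted p under 0.05, where 15.5% of all probe sets tested had such a p. Their summed signals were 100526 and 105189 in KO and 105336 and 102688 in WT. The tissue differed in another respect. Of 12 skeletal muscle marker genes, 10 fell in limma, where 1.34% of all probe sets tested passed in either direction. The summed signals of the 12 were 1263 and 1271 in KO and 13296 and 12378 in WT. Of the 4 tested bone marker genes, 3 fell, with summed signals of 73.3 and 80.9 in KO and 270.2 and 279.4 in WT. At their brightest tested probe sets, 4 of the 12 skeletal muscle genes were Present on all arrays, all negative, with a median difference of -2.32. Of the 4 bone genes, 1 was Present on all arrays, at -0.20. The other genes of both lists entered the test through 1 group alone, which favours a higher signal in that group. In pooled tissue, fewer cells of a type and less RNA per cell cannot be told apart. The part of these tissues in the proteasome values was not tested. The actin control probe sets, whose 3′ to 5′ ratio grows with RNA breakdown, gave ratios of 2.75 and 2.42 in KO and 1.85 and 2.32 in WT, and the part of RNA quality was likewise not tested.

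Nearly the whole proteasome was detected in the ventricle. At least 1 probe set was called Present on all 4 arrays for 44 of the 49 genes. The 5 others were Psma8, Psmb8, Psmb9, Psmb11 and Psmc3ip. Of the 103 probe sets, 77 were tested because both KO arrays or both WT arrays called them Present, and these name 45 genes. Another 6 probe sets belong to the 4 genes with none tested, and 20 are further probe sets of genes tested elsewhere. Of the 77, 71 were Present on all 4 arrays, and the counts by role and the medians below use these. A filter passed through 1 group alone favours, but does not force, higher signals in that group.

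**Figure D1:**
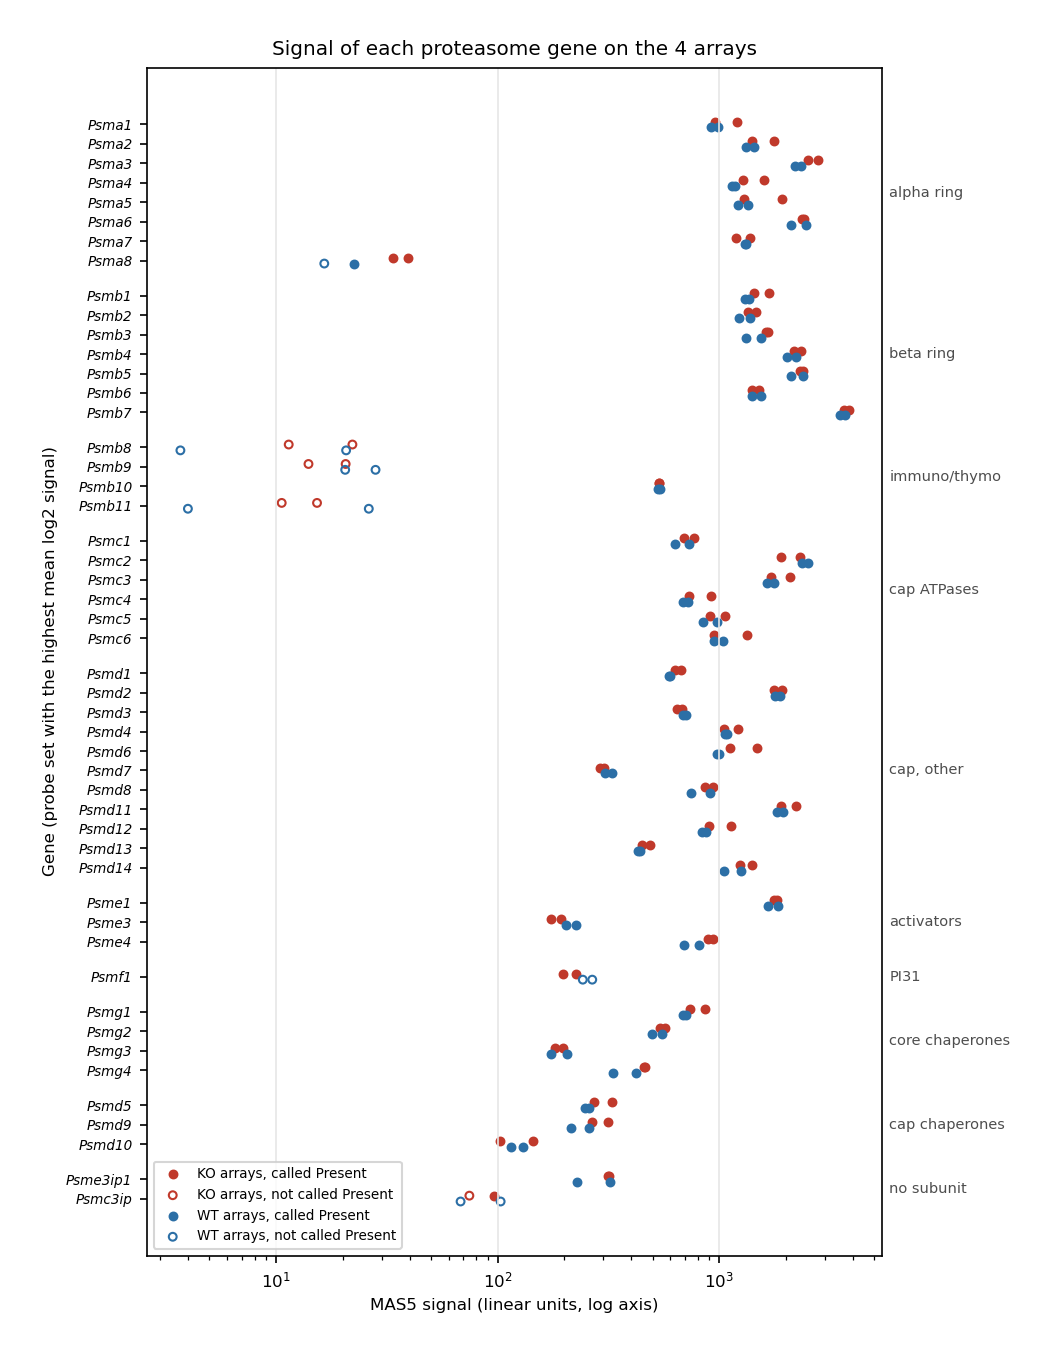
MAS5 signal (log axis) of the probe set with the highest mean log2 signal for each of the 49 genes, grouped by role, with 1 point per array (red KO above blue WT, filled where called Present, open where not). Psmb8, Psmb9 and Psmb11 have open points on all 4 arrays, and the KO and WT points of most other genes lie side by side. Signals of different probe sets are not comparable with each other.

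No proteasome transcript passed the test between KO and WT. In limma with Benjamini-Hochberg adjustment over all 19065 probe sets tested, 0 of the 77 passed at 0.05, against 1.34% of all probe sets tested. The smallest adjusted p among them was 0.191, and 7 of the 77 had an unadjusted p under 0.05, against 15.5% of all tested. Among the 71 Present on all 4 arrays, 6 had an unadjusted p under 0.05, or 8.45%, against 15.3% of the 16420 probe sets Present on all arrays. Of these, 5 were higher in KO and 1 lower, where 7.72% of all probe sets Present on all arrays were higher and 7.55% lower by that measure. The differences were small in size. They ran from -0.56 to 0.41 (log2, KO minus WT), and their standard errors (SE) from 0.092 to 0.39.

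The small differences leaned towards higher signals in KO. Of the 71, 48 were positive, or 67.6%, against 53.7% of all probe sets Present on all arrays. Their median was 0.10, against 0.024 over those 16420 probe sets. Both KO arrays lay above both WT arrays at 18 of the 71 (25.4%, against 26.4% of all) and below both at 9 (12.7%, against 21.5% of all). The share lying above was thus near that of the array as a whole. Medians were positive among members with a mean log2 signal over 8 and negative among dimmer ones. Set beside all probe sets Present on all arrays at the same level, the 20 members with a mean log2 signal of 9 to 10 had a median of 0.13, against 0.074. The 19 members at 10 to 11 had a median of 0.16, against 0.048, the 13 at 8 to 9 one of 0.10, against 0.052, and the 6 at 11 to 12 one of 0.071, against 0.037. Among dimmer members, the 3 at 7 to 8 had a median of -0.17, against 0.028, and the 7 at 6 to 7 one of -0.0061, against -0.032. The 2 at 4 to 5 had a median of -0.18, against -0.12, and the 1 at 5 to 6 stood at -0.0068, against -0.085.

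**Figure D2:**
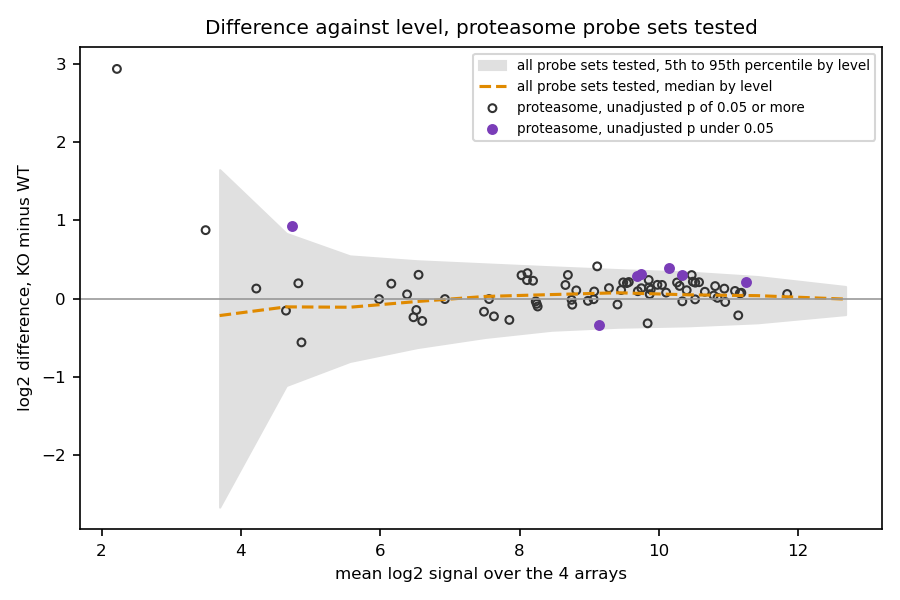
Log2 difference (KO minus WT) of the 77 tested proteasome probe sets against their mean log2 signal over the 4 arrays. The grey band spans the 5th to 95th percentile of all probe sets tested at that level, and the 7 filled points have an unadjusted p under 0.05. Most proteasome points lie inside the band, and the dashed line is the median of all probe sets.

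By its median, the lean was larger on 1 KO pool than on the other. By count, most of the 71 lay above the WT mean on both KO pools, and also on WT replicate 1. Relative to the mean of the WT arrays, the median of the 71 probe sets was 0.047 on KO replicate 1 and 0.15 on KO replicate 2, against 0.029 on WT replicate 1 and -0.029 on WT replicate 2. Above the WT mean lay 49 of the 71 on KO replicate 1 and 53 on KO replicate 2, against 42 and 29 on WT replicates 1 and 2. The values of the 2 WT arrays mirror each other by construction, since both are set against their own mean. Over all 16420 probe sets Present on all arrays, 8742 lay above it on KO replicate 1 and 8821 on KO replicate 2. Of the 71, 49 were brighter on KO replicate 2 than on KO replicate 1. Over all probe sets Present on all arrays, 8607 of 16420 were brighter on KO replicate 2 than on KO replicate 1. Without KO replicate 1, 4 of the 77 tested probe sets passed the adjusted threshold in limma, those of Psma4, Psma5, Psmd4 and Psmd6 described below, in a fit that called 3.41% of all probe sets tested. Without WT replicate 1, a probe set of Psma7 passed, in a fit that called 0.855% of all. The lone array of a group is then assumed to vary like the other group.

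**Figure D3:**
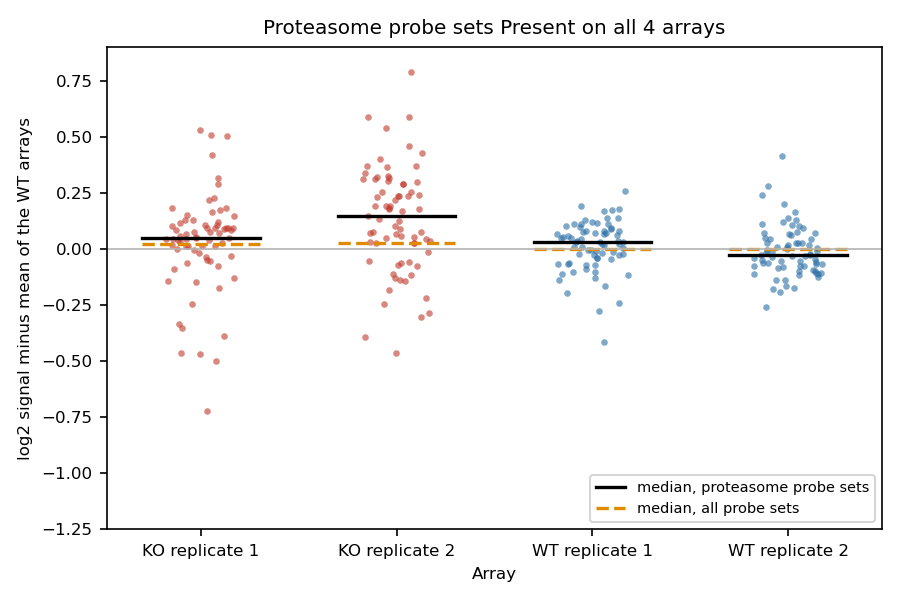
Log2 signal of the 71 proteasome probe sets Present on all arrays, shown for each array minus the mean of the 2 WT arrays, 1 point per probe set. The black bar, the median of the proteasome probe sets, stands at 0.047 and 0.15 on the KO arrays and at 0.029 and -0.029 on the WT arrays, while the dashed median of all probe sets Present on all arrays stays within 0.028 of 0.

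The alpha ring, whose subunits form the gate of the core, had no called member. Of its 12 probe sets Present on all arrays, 8 were positive and 4 negative, with a median of 0.11, and 2 had an unadjusted p under 0.05, both positive, which is 16.7% against 15.3% of all probe sets Present on all arrays. Psma4 read 1283 and 1587 in KO, against 1137 and 1176 in WT. Both KO arrays lay above both WT arrays, at a difference of 0.30 ± 0.12 (adjusted p = 0.254 in limma, n = 2 arrays per group, ± SE). Psma3 read 2512 and 2774 in KO, against 2198 and 2344 in WT. Its groups did not overlap either, with a difference of 0.22 ± 0.10 (adjusted p = 0.319 in limma).

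Among the other alpha subunits at their brightest probe sets, the groups overlapped except in Psma8. Psma5 read 1292 and 1921 in KO, against 1342 and 1220 in WT at 1434356_a_at (0.30 ± 0.15, adjusted p = 0.371 in limma), so that KO replicate 2 stood alone. Without KO replicate 1 its difference was 0.59 with an adjusted p of 0.0155, and that of Psma4 was 0.46 with an adjusted p of 0.0473, both in limma. Psma2 read 1411 and 1766 in KO, against 1314 and 1432 in WT, and Psma1 959 and 1200 in KO, against 982 and 919 in WT. In both genes KO replicate 2 was the highest array and KO replicate 1 lay between the WT arrays. Psma6 read 2416 and 2358 in KO, against 2098 and 2452 in WT (0.074 ± 0.11), and Psma7 read 1187 and 1376 in KO, against 1316 and 1304 in WT (-0.035 ± 0.11). A second probe set of Psma7, 1423568_at, read 723 and 933 in KO, against 767 and 1362 in WT. There WT replicate 2 stood apart, and the difference was -0.32 ± 0.21 (adjusted p = 0.484 in limma). Leaving out WT replicate 1 gave -0.73 (adjusted p = 0.0372 in limma), while leaving out WT replicate 2 gave 0.098 (adjusted p = 0.891 in limma).

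The 3 largest positive differences of all tested members were in dim alpha-ring probe sets that passed the detection filter through the KO arrays, so that a difference in this direction was favoured by the filter. Psma8, the alpha subunit found in the testis, read 33.7 and 39.5 in KO, against 16.5 and 22.5 in WT, and was Present on both KO arrays and on 1 of the 2 WT arrays. The groups did not overlap (0.92 ± 0.39, adjusted p = 0.280 in limma). The Psma1 probe set 1436769_at read 12.1 and 13.7 in KO, against 0.3 and 9.5 in WT, and was not Present on either WT array. With the WT signal of 0.3 raised to 4.1, the lowest signal of any probe set called Present on that array, KO was 2.06-fold higher. That value is not the detection limit of this probe set, so the fold is no firm minimum. The fitted difference had an adjusted p of 0.322 in limma and a 95% interval of -0.0027 to 5.86. The third was Psma6 1435316_at, with 15.2 and 15.3 in KO, against 6.3 and 11 in WT (0.87 ± 0.61, adjusted p = 0.513 in limma). The brighter probe sets of Psma1 and Psma6 differed by far less, as given above.

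The beta ring carries the proteolytic sites, and its catalytic subunits showed small differences with overlapping groups. Psmb5, which cuts after hydrophobic residues, read 2385 and 2309 in KO, against 2389 and 2098 in WT. Psmb6, which cuts after acidic residues, read 1518 and 1412 in KO, against 1547 and 1404 in WT. Psmb7, which cuts after basic residues, read 3832 and 3661 in KO, against 3494 and 3703 in WT. Their differences were 0.068 for Psmb5, -0.0099 for Psmb6 and 0.058 for Psmb7, with 95% intervals of -0.15 to 0.29, -0.24 to 0.22 and -0.14 to 0.26.

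The structural beta subunits varied a little more. Psmb3 read 1662 and 1623 in KO, against 1537 and 1313 in WT at its brightest probe set, with no overlap of the groups (0.21 ± 0.11, adjusted p = 0.389 in limma). Psmb2 read 1458 and 1347 in KO, against 1376 and 1231 in WT (0.11 ± 0.11), and Psmb4 read 2182 and 2340 in KO, against 2209 and 2019 in WT (0.097 ± 0.10). The groups overlapped in both. Psmb1 was read by 3 probe sets that did not move together. At 1448166_a_at it read 1435 and 1669 in KO, against 1308 and 1358 in WT, both KO arrays above both WT arrays (0.22 ± 0.11, adjusted p = 0.377 in limma). At 1420052_x_at it read 463 and 548 in KO, against 610 and 669 in WT, both KO arrays below (-0.34 ± 0.13, adjusted p = 0.247 in limma). At the dim 1420053_at the order was the same, with 82.0 and 94.6 in KO, against 106.9 and 107.8 in WT. A suffix of x_at marks a probe set whose probes may also match other transcripts, and the difference at 1420052_x_at was 0.15, of the opposite sign, in the signal log ratio that the authors deposited beside the signals.

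The immunoproteasome was detected only in part. Psmb8, which takes the place of Psmb5, read 11.4 and 22.1 in KO, against 20.7 and 3.7 in WT at its brightest probe set, and its other probe set read between 0.8 and 5.0. Psmb9, which takes the place of Psmb6, read 20.6 and 14 in KO, against 28.1 and 20.5 in WT. Every one of these signals was called Absent, with detection p-values of 0.304 or more for Psmb8 and 0.432 or more for Psmb9. The values therefore have only a bound, and no difference was tested. Psmb10, which takes the place of Psmb7, was Present on all arrays at 535.4 and 531.9 in KO, against 542.7 and 530.7 in WT. The groups overlapped, with a difference of -0.0081 ± 0.13 and a 95% interval of -0.28 to 0.26. The log2 ratio of Psmb10 to Psmb7 differed by -0.066 between KO and WT (two-sided exact permutation p = 0.667, the smallest possible being 0.33 with 2 arrays per group). Psmb11, the beta subunit of the thymus, was Absent on all arrays, at 10.6 and 15.3 in KO, against 4.0 and 26.2 in WT.

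Genes of the interferon response and antigen processing had no called member either, and some were detected and others not. Of 18 genes listed, 15 were on the array under 1 name and 10 were tested, and none passed in limma. Of the 10, 1 had an unadjusted p under 0.05, where 15.5% of all probe sets tested had such a p. Tap1 and Tap2, the peptide transporter subunits whose genes lie beside Psmb8 and Psmb9, were Absent on all arrays, as were Ifit1 and Ifit3, which interferon induces. B2m, the light chain of class I antigen molecules, was Present at 992 and 1138 in KO, against 1060 and 1078 in WT, and was named after its value was seen. At their brightest tested probe sets, the 8 genes Present on all arrays all had negative differences, with a median of -0.19. Over all probe sets Present on all arrays 46.3% were negative, a share that counts every probe set of a gene at every level. Irf9, a transcription factor of the interferon response, had the smallest p, with 91.4 and 69.7 in KO, against 108.9 and 130.9 in WT (-0.58 ± 0.23, adjusted p = 0.248 in limma). Gbp2, an interferon-induced GTPase, read 16.6 and 23.9 in KO, where it was called Absent, against 38.1 and 30.5 in WT. H2-D1, a class I heavy chain, stood at -0.29 ± 0.17 and Ifi35, an interferon-induced protein, at -0.21 ± 0.13. Of the 12 leukocyte and macrophage markers, 8 were tested and none passed in limma. Of the 8, 6 were negative and 1 had an unadjusted p under 0.05, where 15.5% of all probe sets tested had such a p. Their summed signals were 1310 and 1269 in KO and 1417 and 1529 in WT. C1qa, C1qc, Cd52 and Fcer1g were Present on no array. The part of such cells in these values was not tested.

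The ATPases of the cap base pull substrates into the core, and none had an unadjusted p under 0.05. Of their 11 probe sets, 7 were positive and 4 negative, with a median of 0.11. Psmc4 read 731 and 913 in KO, against 724 and 688 in WT, without overlap at its brightest probe set (0.21 ± 0.13, adjusted p = 0.463 in limma). Its second, 1416290_a_at, had the opposite sign, with 321 and 552 in KO, against 508 and 389 in WT, and the groups overlapped (-0.078 ± 0.21). Psmc3 read 1718 and 2090 in KO, against 1762 and 1633 in WT, and Psmc6 read 942 and 1338 in KO, against 947 and 1044 in WT. In both, KO replicate 2 was the highest array and the groups overlapped. Psmc1 stood at 0.11 ± 0.13 and Psmc5 at 0.11 ± 0.13, each with overlap. Psmc2 gave opposite signs at its 2 bright probe sets. It read 1906 and 2303 in KO, against 2513 and 2351 in WT at 1435859_x_at (-0.21 ± 0.11, adjusted p = 0.377 in limma), and 1211 and 1463 in KO, against 1215 and 1166 in WT at 1426611_at (0.16 ± 0.12, adjusted p = 0.538 in limma). Its other, dim probe set, 1443307_at, had the largest negative difference of all tested members, with 21.5 and 27.0 in KO, against 38.3 and 32.9 in WT (-0.56 ± 0.37, adjusted p = 0.483 in limma).

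The other subunits of the cap recognise ubiquitin, brace the lid and cut the chain off. Of their 18 probe sets Present on all arrays, 14 were positive and 4 negative, with a median of 0.13. Of the 18, 2 had an unadjusted p under 0.05, or 11.1%, against 15.3% of all probe sets Present on all arrays. Psmd6, a structural subunit of the lid, had the smallest p of all members. It read 1119 and 1484 in KO, against 993 and 980 in WT at 1423697_at, and both KO arrays lay above both WT arrays, which lay close together (0.39 ± 0.13, adjusted p = 0.191 in limma, 0.0165 without KO replicate 1). Its second probe set, 1423696_a_at, did not show this, with 941 and 966 in KO, against 990 and 849 in WT (0.057 ± 0.12). Psmd11, a scaffold of the lid, was positive at all 4 of its tested probe sets. At 1440253_at it read 1085 and 838 in KO, against 800 and 731 in WT, without overlap (0.32 ± 0.14, adjusted p = 0.288 in limma). At its brightest, 1437080_s_at, it read 1899 and 2219 in KO, against 1825 and 1936 in WT, with overlap (0.13 ± 0.11).

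Psmd4, a ubiquitin receptor, and Psmd14, the metalloprotease that removes the ubiquitin chain, did not pass either. Psmd4 read 492 and 831 in KO, against 525 and 441 in WT at 1425859_a_at, and KO replicate 2 alone was high (0.41 ± 0.20, adjusted p = 0.339 in limma, with 0.79 and 0.0124 without KO replicate 1). Its brightest probe set read 1050 and 1218 in KO, against 1059 and 1085 in WT (0.077 ± 0.12). Psmd14 read 1243 and 1398 in KO, against 1046 and 1250 in WT, an overlap of the groups by a small margin (0.21 ± 0.12). Psmd12, another lid subunit, read 897 and 1126 in KO, against 870 and 836 in WT, without overlap (0.24 ± 0.13, adjusted p = 0.397 in limma). Of the large scaffolds of the base, Psmd1 read 634 and 672 in KO, against 591 and 599 in WT, without overlap (0.13 ± 0.12), and Psmd2 stood at 0.0094 ± 0.10 with overlap. Psmd3 and Psmd7, of the lid, were the 2 negative genes at the brightest probe set, both with KO below WT, at -0.076 ± 0.12 and -0.10 ± 0.15. Psmd8 and Psmd13, the last of the cap genes taken by the symbol rule, stood at 0.13 ± 0.13 and 0.10 ± 0.13.

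**Figure D4:**
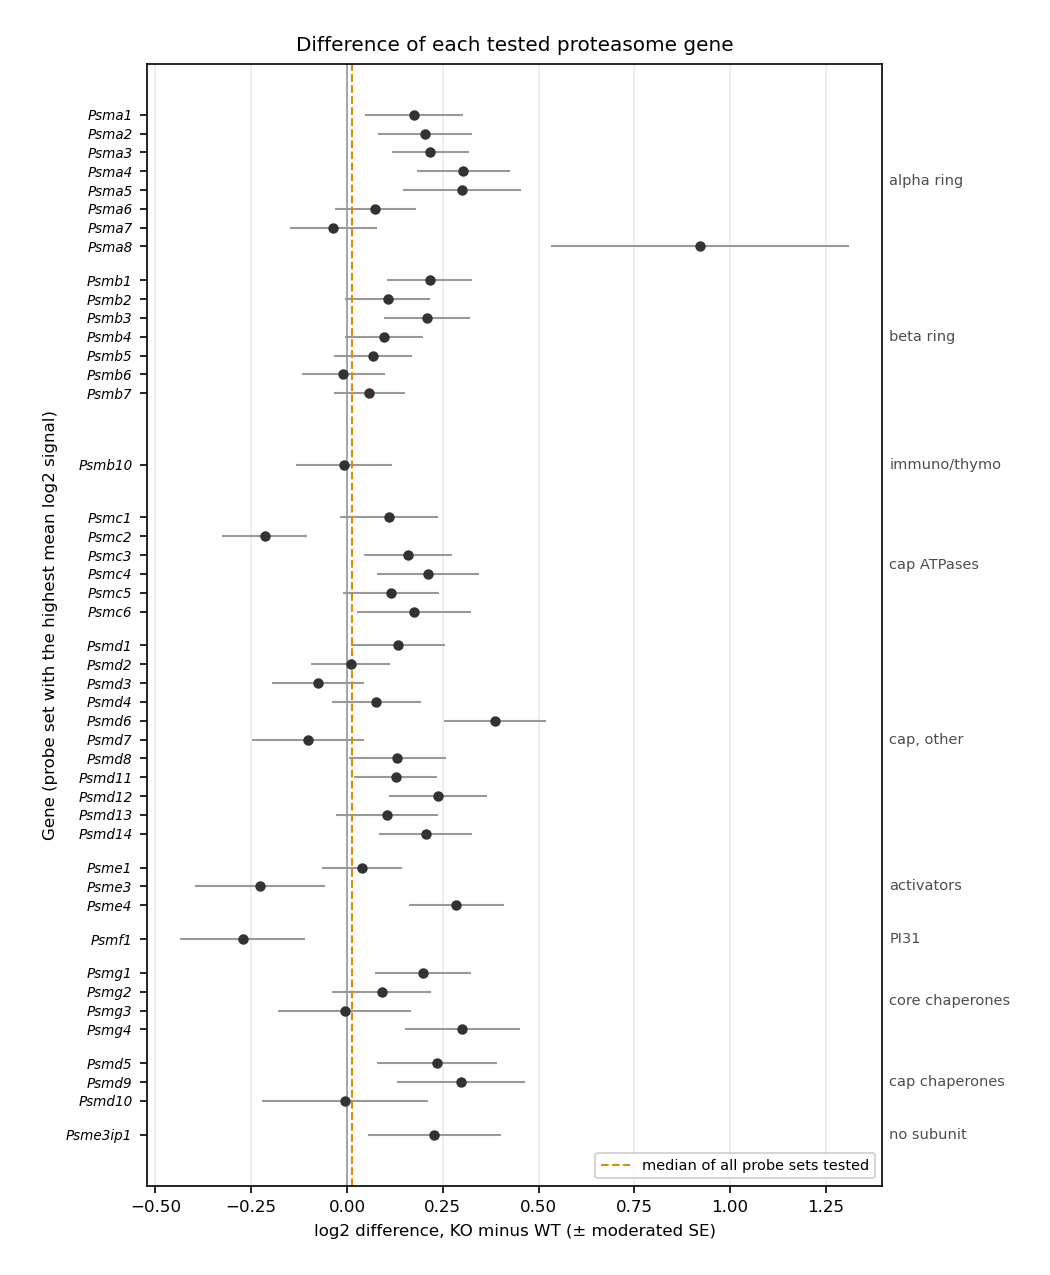
Log2 difference (KO minus WT) with its moderated SE for the 45 tested genes, each at the probe set with the highest mean log2 signal, grouped by role. The catalytic Psmb5, Psmb6 and Psmb7 and Psmb10 lie within 0.068 of 0, Psma8 stands at 0.92 with a wide error, and the dashed line is the median of all probe sets tested.

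Activators open the core without the cap, and their members pointed in different directions. Psme4, a single-chain activator known from testis and from the response to DNA damage, read 933 and 893 in KO, against 690 and 813 in WT at 1426823_s_at. The groups did not overlap, and the difference was 0.29 ± 0.12 (adjusted p = 0.292 in limma). The other 3 tested probe sets of Psme4 overlapped between the groups, and 1426824_at was slightly negative (-0.036 ± 0.16). Psme3, which forms the nuclear activator, read 194 and 174 in KO, against 227 and 204 in WT at 1418078_at, and both KO arrays lay below both WT arrays at this and its second tested probe set (-0.23 ± 0.17 and -0.17 ± 0.18). Psme1, a subunit of the activator that interferon induces, read 1758 and 1827 in KO, against 1841 and 1653 in WT (0.039 ± 0.10), with overlap. Psmf1, the inhibitor PI31 of the core, read 225 and 197 in KO, against 267 and 242 in WT at 1451337_at, which was Present on both KO arrays and on neither WT array. The brighter group was thus the one without a Present call, and 1424370_s_at pointed the other way, with 122 and 88.9 in KO, against 82.9 and 85.9 in WT.

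The assembly chaperones build the rings and leave the finished particle. Psmg1 and Psmg4, which guide the alpha ring, lay higher on both KO arrays. Psmg1 read 738 and 863 in KO, against 684 and 708 in WT (0.20 ± 0.12), and Psmg4 read 456.0 and 463.9 in KO, against 421.3 and 330.7 in WT (0.30 ± 0.15, adjusted p = 0.355 in limma). Psmg2 and Psmg3 overlapped, at 0.090 ± 0.13 and -0.0062 ± 0.17. Among the chaperones of the cap, Psmd9 read 315 and 267 in KO, against 260 and 214 in WT (0.30 ± 0.17, adjusted p = 0.409 in limma). Psmd5 read 273 and 328 in KO, against 260 and 249 in WT (0.24 ± 0.16, adjusted p = 0.493 in limma). Both had no overlap, while Psmd10 stood at -0.0061 ± 0.22. Psme3ip1 and Psmc3ip carry the symbol but are no subunits: Psme3ip1, a partner of Psme3, read 315 and 319 in KO, against 229 and 320 in WT (0.23 ± 0.17), and Psmc3ip, a recombination protein, was not tested.

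Of 26 listed partners of the proteasome, 21 were on the array under 1 name and all were tested. None passed in limma, with 3 at an unadjusted p under 0.05, 2 higher and 1 lower in KO, where 15.5% of all probe sets tested had such a p. Of the 21 differences, each at the brightest tested probe set of its gene, 16 were positive, and their median was 0.16. Among all probe sets Present on all arrays, as these were, 53.7% were positive and the median was 0.024. That share counts every probe set of a gene at every level. Pomp, the chaperone that matures the core, read 1700 and 1729 in KO, against 1492 and 1322 in WT, without overlap (0.29 ± 0.11, adjusted p = 0.225 in limma). Ubqln1, which carries ubiquitinated proteins to the proteasome, read 1056 and 1122 in KO, against 860 and 943 in WT (0.27 ± 0.11, adjusted p = 0.277 in limma). Akirin2, which brings proteasomes into the nucleus, read 829 and 887 in KO, against 745 and 695 in WT (0.25 ± 0.12, adjusted p = 0.326 in limma). In these 3 genes both KO arrays lay above both WT arrays at the brightest probe set. Nfe2l1, the factor that raises proteasome genes when the proteasome is inhibited, lay the other way. It read 598 and 392.3 in KO, against 672 and 640 in WT (-0.44 ± 0.17, adjusted p = 0.247 in limma), and without KO replicate 1 it stood at -0.74 with an adjusted p of 0.0124. Its relative Nfe2l2 read 597 and 663 in KO, against 585 and 545 in WT (0.16 ± 0.13, adjusted p = 0.585 in limma), a gene named after its values were seen.

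The muscle ubiquitin ligases, which mark proteins of the contractile apparatus for the proteasome, held the 1 called gene of these lists. Of 5 listed, 4 were tested and 1 fell in limma, where 1.34% of all probe sets tested passed in either direction. Of the 4, 2 had an unadjusted p under 0.05, both lower in KO, where 15.5% of all probe sets tested had such a p. Trim54, a ligase of the sarcomere, read 46.8 and 44.2 in KO, against 143.0 and 105.0 in WT (-1.43 ± 0.25, adjusted p = 0.0105 in limma). It was called Absent on 1 of the 2 KO arrays, and leaving out WT replicate 1 took the adjusted p to 0.112 in limma. Skeletal muscle also makes Trim54, and the median difference of the skeletal muscle markers was -4.23. The part of that tissue in the fall was not tested. Fbxo32, the ligase atrogin, read 182 and 164 in KO, against 214 and 237 in WT (-0.38 ± 0.17, adjusted p = 0.299 in limma). Trim63, the ligase MuRF, read 1900 and 2150 in KO, against 2001 and 1807 in WT (0.088 ± 0.11), and Fbxo30 stood at 0.22 ± 0.16.

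Probe sets of 1 gene often disagreed in sign, which bounds how far such small differences can be read. Of the 19 genes with more than 1 tested probe set, 8 had the same sign at all of them and 11 had both signs. The 8 were Psma5, Psma7, Psmb3, Psmd4, Psmd6, Psmd7, Psmd11 and Psme3. The widest range among probe sets Present on all arrays was that of Psmc2, between -0.56 and 0.16. Many proteasome genes have processed copies elsewhere in the genome, and probes may also match those.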

How the data were processed

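Total RNA of pooled ventricles was hybridised to 4 arrays, 2 KO and 2 WT, grouped by the sample titles. The deposited intensity is a MAS5 signal on a linear scale, 1 per probe set and array. The tool is named per the submitters' processing notes, with its version not given in the sources used here. Per the file headers, each probe set carries a detection p-value, a call made from it (Present, Marginal or Absent) and a signal log ratio on a log2 scale against an unnamed baseline array. The 2%-trimmed mean signal was 150 on each array. The deposited series table held the same signals. Present calls covered 43.2% and 43.8% of probe sets in KO and 43.2% and 42.4% in WT. With 2 arrays per group, their number limits the precision.

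Gene names came from the platform annotation (34945 of 45037 probe sets name 1 gene), updated through a GRCm38.p6 gene table. A probe set was tested where both KO arrays or both WT arrays called it Present. Log2 signals, with signals under 0.1 set to 0.1 (a step not in the planned design), were fitted on genotype with limma 3.58.1 (lmFit, eBayes with a variance trend) in R 4.3.3. The p-values are two-sided, adjusted by Benjamini-Hochberg over all 19065 probe sets tested. The fit was tested on simulated data with known changes. It recovered 58 of 100 changes of 1 log2 unit and 97 of 100 of 2, with 9 false calls. Smaller changes were not simulated. The alternatives were quantile normalization, median centring, an offset of 16 or 64, no filter or Present calls on all 4 arrays, no variance trend or a robust prior, a replicate block, the signal log ratio, and leaving out each array. A ± is the moderated SE. Where 1 probe set stands for a gene, it has the highest mean log2 signal. All proteasome genes may be named. Other listed genes are named where past the threshold or among the 4 with the smallest p. The members and lists were chosen with earlier results of these data known. The replicate numbers of the titles were not used to pair the arrays. Deviations of same-numbered arrays from their group means correlated at r = -0.011 over probe sets. With 1 such deviation per group, this value cannot say whether a number marks a shared litter or day.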

Additional observations from a re-analysis of the deposited data

How the results depend on the processing

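The count of 0 proteasome probe sets past the threshold held under each alternative that keeps all 4 arrays, and became 4 without KO replicate 1 and 1 without WT replicate 1. The replicate block also gave 0 proteasome calls (11 at unadjusted p under 0.05, smallest adjusted p = 0.0708) and 271 higher and 450 lower calls over all probe sets, against 73 and 183 in the unblocked fit; the titles do not say that a number marks a shared litter or day.

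Over all probe sets, the higher and lower calls were 7 and 30 with no filter on detection, 4 and 19 with no variance trend, and 0 and 1 in the signal log ratio. With an array left out they ran from 48 to 222 higher and from 110 to 428 lower, with both highest counts without KO replicate 1. The proteasome median of 0.11 over the 77 tested probe sets ran from 0.051 to 0.15 with an array left out, and from 0.076 to 0.11 under the other alternatives. The change of Psmb10 against Psmb7 was -0.13 with quantile normalization and -0.15 in the signal log ratio, and ran from -0.0085 without WT replicate 1 to -0.12 without WT replicate 2, against -0.066 over all 4 arrays. Its permutation test and the medians take no variance setting.

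Some differences changed sign; the cause was not tested. In the signal log ratio, Psma7 stood at 0.10 at both probe sets, Psmb1 1420052_x_at at 0.15, Psmc2 1435859_x_at at 0.050, Psmd8 at -0.050 and Trim63 at -0.050. Quantile normalization turned Psmd10 to 0.058 and Psmd2 to -0.012, and median centring turned Psmd2 to -0.022. With an array left out, the differences that changed sign ran from -0.039 to 0.19 for Psma6 1437144_x_at, from -0.14 to 0.071 for Psma7 1423567_a_at, from -0.73 to 0.10 for Psma7 1423568_at, from -0.024 to 0.0080 for Psmb10, from -0.026 to 0.16 for Psmb5, from -0.080 to 0.060 for Psmb6 and from -2.09e-05 to 0.22 for Psmc1. The others ran from -0.0013 to 0.23 for Psmc5, from -0.079 to 0.43 for Psmc6 1417771_a_at, from -0.25 to 0.24 for Psmd10, from -0.052 to 0.071 for Psmd2, from -0.030 to 0.18 for Psmd4 1418874_a_at and from -0.055 to 0.17 for Psmd6 1423696_a_at. The rest ran from -0.0078 to 0.27 for Psmd8, from -0.039 to 0.12 for Psme1, from -0.013 to 0.47 for Psme3ip1, from -0.12 to 0.11 for Psmg3 and from -0.0014 to 0.18 for Trim63. Trim54 lost its call with no filter on detection, no variance trend and in the signal log ratio (limma adjusted p = 0.212, 0.152 and 0.353). With 4 arrays and small fold changes, dim probe sets had the widest errors, up to 1.36 for Psma1 1436769_at.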
